A study of Mus musculus with 28 samples.

Results

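The genes described here make cholesterol and fatty acids, carry sterols, or form the control system of the sterol regulatory element binding proteins (SREBPs). They are 34 of the 54354 genes in the table, each found once by its symbol, and all 34 passed the filter on low counts that left 12495 genes for testing. By role they fall into 18 enzymes of cholesterol synthesis, 5 genes of the SREBP control system, 3 genes of sterol transport inside cells and 8 enzymes of fatty acid synthesis, elongation and desaturation.

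RNA was sequenced from 28 mouse libraries, all carrying the Lgr5-GFP genotype, in which a fluorescent reporter follows the crypt stem cell receptor gene Lgr5. The groups were Lgr5-high cells on a cystine diet, Lgr5-high cells on a control diet, Lgr5-low cells on a cystine diet and Lgr5-low cells on a control diet, with 7 libraries each. Cystine is a pair of cysteines joined by a disulfide bond. Its dose, the time on diet and the animals' age and sex are not stated in the labels read here. The design text places both populations in the small intestine, whereas the extraction protocol in the labels speaks of organoids, and nothing read here settles which applies. Whether each library stands for its own animal is not stated either. Every p-value therefore weighs a difference against the spread between these libraries, which may not be the spread between animals.

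SREBPs are made as membrane proteins of the endoplasmic reticulum, where the Insig proteins hold them back through their escort protein Scap while sterols are plentiful. When membrane sterol falls, Scap carries them to the Golgi, proteases release their soluble part, and this enters the nucleus and switches on genes of sterol and fatty acid synthesis. Srebf2 is known mainly for driving cholesterol synthesis and uptake, and Srebf1 for driving fatty acid synthesis. Intestinal epithelial cells both absorb sterol from the diet and make their own.

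Total counts ran from 2.75 to 21.5 M per library (M for mega), and 7 libraries had fewer than 5 M, 3 of them among Lgr5-high cystine libraries. Levels are given as CPM, which expresses each count per M of its library's total after TMM (trimmed mean of M values) adjustment. Lgr5 stood at 16.2, 22.4 and 35.3 CPM (lowest, median and highest library) in Lgr5-high cystine cells and at 21.5, 33.2 and 45.1 CPM in Lgr5-high control cells. It stood at 2.70, 7.18 and 10.9 CPM in Lgr5-low cystine cells and at 0.214, 4.09 and 10 CPM in Lgr5-low control cells, so that the sorted populations did not overlap. The marker lists moved between the populations as well. Over both diets, 8 of 8 stem cell markers were higher in Lgr5-high libraries, while 7 of 7 goblet cell, 7 of 8 enteroendocrine and 4 of 8 enterocyte markers were lower. Summed goblet cell markers ran from 6996 to 19606 CPM in Lgr5-high libraries and from 17307 to 54218 CPM in Lgr5-low libraries. Summed macrophage markers, such as Clec4f, reached 571 CPM in Lgr5-high cystine libraries (median 331) and stayed at or under 120 CPM in the other groups. The part of these other cells in the results below was not tested, and in bulk samples fewer cells of a type and less RNA per cell cannot be told apart.

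Promoter stretches are shown for 6 of the genes, because genes of this pathway are known to be switched on by SREBPs through sites near their starts. Each is the 250 bases before the RefSeq transcript start (GRCm38.p6), printed 5′ to 3′ on the strand of the gene. Capitals mark TCACNCCA, a sterol regulatory element type of motif that SREBPs can bind, and CCAAT, the core of the site of the factor NF-Y, each on either strand. In all of these genes but Hmgcs1 the stretch reaches past the GENCODE M21 start into the annotated gene.
Hmgcs1, chr13:119690101-119690350, plus strand: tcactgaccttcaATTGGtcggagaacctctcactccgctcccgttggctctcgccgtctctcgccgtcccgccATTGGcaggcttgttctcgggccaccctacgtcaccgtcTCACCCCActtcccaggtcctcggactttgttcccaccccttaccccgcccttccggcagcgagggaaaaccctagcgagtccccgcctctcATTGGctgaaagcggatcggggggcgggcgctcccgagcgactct
Msmo1, chr8:64733579-64733828, minus strand: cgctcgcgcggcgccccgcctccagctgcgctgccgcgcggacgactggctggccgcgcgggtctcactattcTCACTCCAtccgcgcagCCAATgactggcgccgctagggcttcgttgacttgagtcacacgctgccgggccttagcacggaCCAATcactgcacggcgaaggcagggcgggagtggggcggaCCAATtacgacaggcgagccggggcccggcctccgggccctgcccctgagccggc
Cyp51, chr5:4104698-4104947, minus strand: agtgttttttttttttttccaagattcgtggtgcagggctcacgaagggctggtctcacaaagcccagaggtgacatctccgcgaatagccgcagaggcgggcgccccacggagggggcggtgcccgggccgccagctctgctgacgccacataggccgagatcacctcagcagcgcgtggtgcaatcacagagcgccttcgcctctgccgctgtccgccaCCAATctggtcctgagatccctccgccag
Lss, chr10:76531355-76531604, plus strand: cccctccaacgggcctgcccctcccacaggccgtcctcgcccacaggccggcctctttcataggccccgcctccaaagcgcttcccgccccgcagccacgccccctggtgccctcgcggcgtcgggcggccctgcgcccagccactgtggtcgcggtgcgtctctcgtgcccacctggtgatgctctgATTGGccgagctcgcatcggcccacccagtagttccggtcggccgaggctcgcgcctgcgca
Insig1, chr5:28071162-28071411, plus strand: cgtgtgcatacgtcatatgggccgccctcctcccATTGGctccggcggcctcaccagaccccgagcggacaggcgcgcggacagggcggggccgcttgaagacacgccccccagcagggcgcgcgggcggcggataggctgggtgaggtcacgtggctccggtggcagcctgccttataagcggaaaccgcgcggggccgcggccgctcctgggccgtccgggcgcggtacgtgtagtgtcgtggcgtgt
Srebf2, chr15:82147019-82147268, plus strand: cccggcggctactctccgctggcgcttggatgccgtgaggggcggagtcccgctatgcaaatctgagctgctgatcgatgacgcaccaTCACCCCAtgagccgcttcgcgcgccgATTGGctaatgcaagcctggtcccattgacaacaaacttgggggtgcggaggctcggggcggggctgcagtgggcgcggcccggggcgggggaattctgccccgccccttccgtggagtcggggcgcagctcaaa

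Hmgcs1, Msmo1 and Srebf2 each hold 1 match to TCACNCCA, which begins 137, 177 and 162 bases before the start. They were the only members with that match among the 26 that have windows in the RefSeq table. It was found in 3 of their 34 windows, against 3.67% of all 32817 windows of this length. A CCAAT match was found in 20 of the 26 members (21 of 34 windows), against 33.8% of all windows. GGGCGG, the GC box core, was found in 22 members (25 windows), against 32.7% of all windows. The E-box CACGTG was found in 5 members (5 of 34 windows), against 6.02% of all windows. The motifs were chosen after windows of these genes had been looked at, both strands were searched, and overlapping matches were counted. Of the 8 members with a window that were lower in Lgr5-high cells, as described next, 2 hold TCACNCCA, 7 hold CCAAT, 7 hold GGGCGG and 2 hold CACGTG. A match is a string of letters in this window and says nothing of binding in these cells.

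On a per-length scale (mean CPM per kilobase of annotated exon) the pathway spanned a wide range. Ebp, the sterol isomerase, stood highest among the cholesterol enzymes, at 52.5 CPM per kilobase in Lgr5-high cystine, 54.6 in Lgr5-high control, 64.1 in Lgr5-low cystine and 71.7 in Lgr5-low control libraries. Fdps, which makes farnesyl diphosphate, followed in Lgr5-low libraries at 36.7 (cystine) and 51.6 (control) CPM per kilobase. Npc2, which carries cholesterol inside lysosomes, lay between 35.6 and 38.8 CPM per kilobase in the 4 groups. Lss, Mvk, Mvd and Dhcr7 stood between 0.418 and 3.34 CPM per kilobase, and Acaca and Fasn, which make malonyl units and build them into palmitate, between 0.283 and 0.650. Exon lengths take in every annotated transcript, so genes with long rare isoforms are placed too low on this scale. Fdps shares 1124 exon bases on the same strand with the annotated gene Gm43738, and Tm7sf2 shares 532 with Vps51, so the division of reads between these neighbours is uncertain. On the opposite strand, Fdft1 overlaps Ctsb over 774 bases and Cyp51 overlaps Akap9 over 166. The library kit keeps strand, per the labels, but the strand setting used for quantification is not stated there.

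Of the 18 cholesterol synthesis enzymes, 8 were lower in Lgr5-high cells when the population difference was averaged over both diets. These 8 were Hmgcs1, Idi1, Fdps, Fdft1, Lss, Cyp51, Msmo1 and Hsd17b7, with log2 fold changes (Lgr5-high over Lgr5-low) between -1.16 and -0.50. None of the 18 passed in the other direction. With Insig1 and Elovl6 added, 10 of the 34 genes were lower in Lgr5-high cells, against 5.05% of all genes tested that were lower in that comparison and 3.75% that were higher. The 34 genes were chosen with earlier results of these data known, so this comparison of shares is descriptive only. Across the 18 enzymes the log2 fold change was negative for 17, with a median of -0.71, whereas 52.3% of all genes tested had a negative value and their median was -0.02. Nsdhl, a dehydrogenase that acts in the removal of methyl groups from sterols, was the exception at 0.14. The calls are those of edgeR's quasi-likelihood test over all tested genes with Benjamini-Hochberg adjustment at 0.05, as are all adjusted p-values below unless another tool is named.

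The positions of these 10 genes are given on GRCm38 with GENCODE M21. Hmgcs1 and Idi1 share chromosome 13, at 119690379 to 119708260 and 8885501 to 8892451, both on the plus strand. Cyp51 and Insig1 share chromosome 5, at 4081145 to 4104746 on the minus strand and 28071363 to 28078662 on the plus strand. Fdps and Elovl6 share chromosome 3, at 89093588 to 89101959 on the minus strand and 129532355 to 129638495 on the plus strand. Fdft1 lies on chromosome 14 (63145150 to 63179578, minus strand), Lss on chromosome 10 (76531588 to 76557138, plus strand), Msmo1 on chromosome 8 (64718139 to 64733792, minus strand) and Hsd17b7 on chromosome 1 (169949535 to 169969241, minus strand). Among the fatty acid genes, Scd2 (44293674 to 44306864) and Scd1 (44394455 to 44407879) lie close together on chromosome 19, as do Fads2 (10062765 to 10101746) and Fads1 (10182888 to 10196877).

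Taken per library, the mean log2(CPM + 1) of the 18 enzymes was 3.84, 4.16 and 4.55 (lowest, median and highest) in Lgr5-high cystine libraries and 4.12, 4.30 and 4.85 in Lgr5-high control libraries. It was 4.55, 4.80 and 5.14 in Lgr5-low cystine libraries and 4.82, 5.08 and 5.41 in Lgr5-low control libraries. Of the 14 Lgr5-high libraries 11 lay below every Lgr5-low library, and the means differed by -0.67 over both diets. The 3 that did not were Lgr5-high control replicates 1 and 4 and Lgr5-high cystine replicate 4. Counted the same way for single genes, Cyp51 had 12 and Lss 11 of 14 Lgr5-high libraries below every Lgr5-low library, and the other members had fewer. No member had all 14 Lgr5-high libraries below all 14 Lgr5-low libraries, as 0.04% of all genes tested did.

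**Figure D1:**
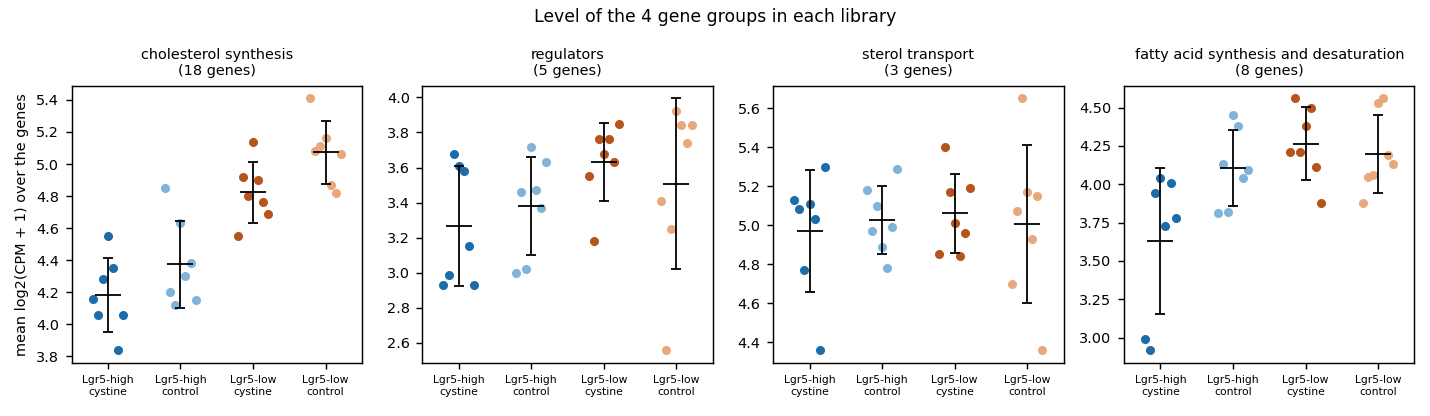
Mean log2(CPM + 1) over the genes of each role in each library, 1 point per library, 7 libraries per group, with the group mean and SD as bars. In the panel of cholesterol synthesis 11 of 14 Lgr5-high libraries lie below all Lgr5-low libraries, while in the panels of regulators and sterol transport the populations overlap.

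The early enzymes, which build farnesyl diphosphate and squalene from acetyl units, included 4 of the 8. Hmgcs1 condenses acetyl and acetoacetyl units on the way to mevalonate. It measured 12.1, 21.4 and 58 CPM (lowest, median and highest here and in the sentences that follow) in Lgr5-high cystine, 18.8, 23.8 and 80.2 in Lgr5-high control, 42.2, 48.5 and 69.4 in Lgr5-low cystine and 29.7, 37.9 and 80.3 in Lgr5-low control libraries. It lay below the median of the Lgr5-low libraries in 12 of 14 Lgr5-high libraries, the exceptions being Lgr5-high control replicate 1 and Lgr5-high cystine replicate 3. The log2 fold change was -0.72 ± 0.22 (SE, adjusted p = 0.0290). Idi1 interconverts the isoprene building blocks. It measured 34.3, 43.3 and 63.8 CPM in Lgr5-high cystine, 37.6, 47.4 and 88.6 in Lgr5-high control, 54.3, 59.4 and 111 in Lgr5-low cystine and 52.1, 68.9 and 113 in Lgr5-low control libraries, and 10 of 14 Lgr5-high libraries lay below the lowest Lgr5-low library (-0.50 ± 0.14, adjusted p = 0.0228). Without Lgr5-low cystine replicate 4 neither gene passed (Hmgcs1 -0.67, adjusted p = 0.0531; Idi1 -0.42, adjusted p = 0.0556), and Hmgcs1 also did not pass without Lgr5-low control replicate 4 (-0.63, adjusted p = 0.0640).

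Fdps and Fdft1 stand at the branch where farnesyl diphosphate is made and then joined head to head into squalene. Fdps measured 77.5, 93.4 and 125 CPM in Lgr5-high cystine, 66.2, 105 and 226 in Lgr5-high control, 107, 122 and 264 in Lgr5-low cystine and 104, 175 and 485 in Lgr5-low control libraries. Its log2 fold change was -0.82 ± 0.20 (adjusted p = 0.00593), and 8 of 14 Lgr5-high libraries lay below every Lgr5-low library. Fdft1, squalene synthase, measured 23.6, 30.7 and 50.1 CPM in Lgr5-high cystine, 36.3, 41.2 and 89.4 in Lgr5-high control, 44.4, 59.8 and 89.3 in Lgr5-low cystine and 26.9, 71.2 and 121 in Lgr5-low control libraries. Here the ranges overlapped more, since 13 of 14 Lgr5-high libraries were under the median of Lgr5-low cells but 2 under their lowest library (-0.65 ± 0.19, adjusted p = 0.0200). The call for Fdft1 was lost with limma-voom (-0.47, adjusted p = 0.0577).

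The later enzymes close the sterol ring and trim it. Lss, which folds squalene epoxide into lanosterol, measured 2.58, 5.73 and 12.3 CPM in Lgr5-high cystine, 2.53, 3.90 and 6.5 in Lgr5-high control, 7.47, 10.4 and 15.5 in Lgr5-low cystine and 7.88, 12.8 and 14.8 in Lgr5-low control libraries. On control diet all 7 Lgr5-high libraries lay below all 7 Lgr5-low libraries, and over both diets the log2 fold change was -1.0 ± 0.24 (adjusted p = 0.00595). Cyp51, the demethylase that acts on lanosterol, measured 4.54, 8.84 and 19.4 CPM in Lgr5-high cystine, 3.90, 10.3 and 34.9 in Lgr5-high control, 20.5, 22.0 and 28.9 in Lgr5-low cystine and 18.3, 29.6 and 39.1 in Lgr5-low control libraries. Apart from Lgr5-high control replicate 1, the 1 library above the Lgr5-low median, the populations were nearly separate, with 12 of 14 Lgr5-high libraries below every Lgr5-low library (-1.16 ± 0.24, adjusted p = 0.00115).

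Msmo1, a methylsterol oxidase, measured 30.7, 48.4 and 65.0 CPM in Lgr5-high cystine, 31.7, 40.9 and 96.7 in Lgr5-high control, 65.1, 86.3 and 111 in Lgr5-low cystine and 50.7, 84.4 and 157 in Lgr5-low control libraries. Lgr5-high control replicate 1 again was the 1 library above the Lgr5-low median. The log2 fold change of -0.89 ± 0.16 (adjusted p = 0.000228) had the lowest adjusted p among the cholesterol enzymes. Hsd17b7, a ketoreductase of the same demethylation steps, measured 5.53, 6.99 and 11.9 CPM in Lgr5-high cystine, 4.47, 6.5 and 13.9 in Lgr5-high control, 5.94, 11.8 and 14.8 in Lgr5-low cystine and 8.03, 13.7 and 26.1 in Lgr5-low control libraries (-0.76 ± 0.24, adjusted p = 0.0418). That call was near the threshold. It was lost when any 1 of 16 libraries was left out, namely Lgr5-high cystine replicates 1, 2, 4 or 5, Lgr5-high control replicates 1, 2, 4, 6 or 7, Lgr5-low cystine replicates 1, 2, 3 or 4 and Lgr5-low control replicates 1, 4 or 7, with log2 fold changes of -0.77 to -0.67 and adjusted p-values of at most 0.0849. It was also lost in 7 of the 11 other settings, namely limma-voom, no filter on low counts, the replicate number as a fixed or random block, the female or male class of libraries alone (classes read from Xist and Y-linked counts) and without libraries under 5 M counts (-1.10 to -0.57, adjusted p at most 0.278).

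**Figure D2:**
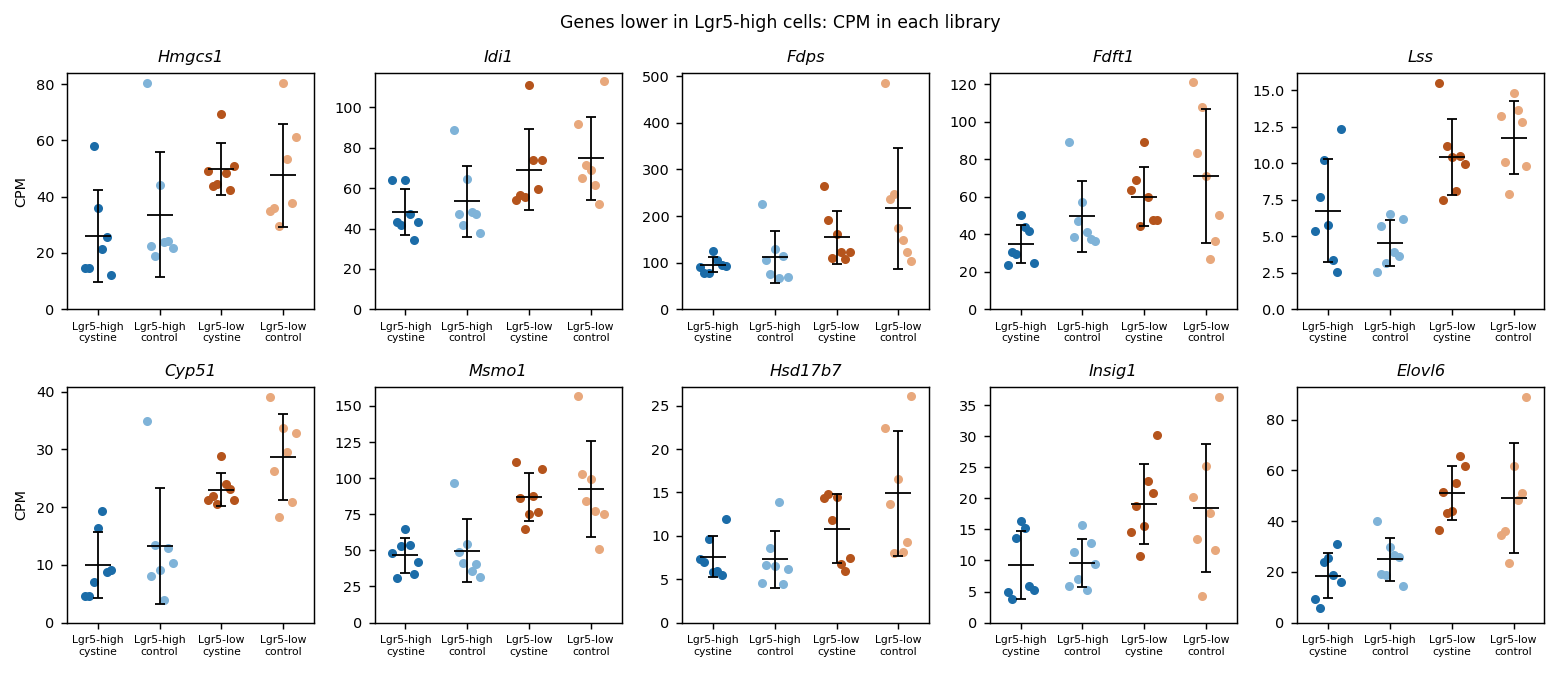
CPM of the 10 genes that were lower in Lgr5-high cells over both diets, 1 panel per gene on a linear axis from 0, 1 point per library, 7 libraries per group, with group mean and SD as bars. In Hmgcs1, Idi1, Fdps, Fdft1, Cyp51, Msmo1 and Elovl6 the highest Lgr5-high control point is replicate 1. Elovl6 and Insig1 have all 14 Lgr5-high points below the Lgr5-low median.

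The other 10 cholesterol enzymes did not pass, and 9 of them had log2 fold changes between -1.55 and -0.29. Sc5d, a sterol desaturase, came nearest at -0.49 ± 0.16 (adjusted p = 0.0524). Mvd and Pmvk, neighbouring steps from mevalonate to the isoprene unit, stood at -1.22 ± 0.42 (adjusted p = 0.0627) and -0.43 ± 0.15 (adjusted p = 0.0664). Mvk, mevalonate kinase, had the most negative value, -1.55 ± 0.57 (adjusted p = 0.0792). It was read at 0 in 2 Lgr5-high cystine and 2 Lgr5-high control libraries and at most 4.73 CPM in the other Lgr5-high libraries, against 0.574 to 15 CPM in Lgr5-low libraries, and all 14 Lgr5-high libraries lay below the Lgr5-low median. Sqle (-0.71), Tm7sf2 (-0.52), Ebp (-0.34) and Acat2 (-0.29), which oxidise squalene, reduce and isomerise sterols and join acetyl units, had adjusted p-values between 0.148 and 0.431. Dhcr7 stood at -0.80 ± 0.34 (adjusted p = 0.149). DESeq2 on the same genes called 12 members in this comparison, the same 10 with Mvk and Mvd, all lower, against 6.31% of all genes that it called lower and 5.57% higher.

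**Figure D3:**
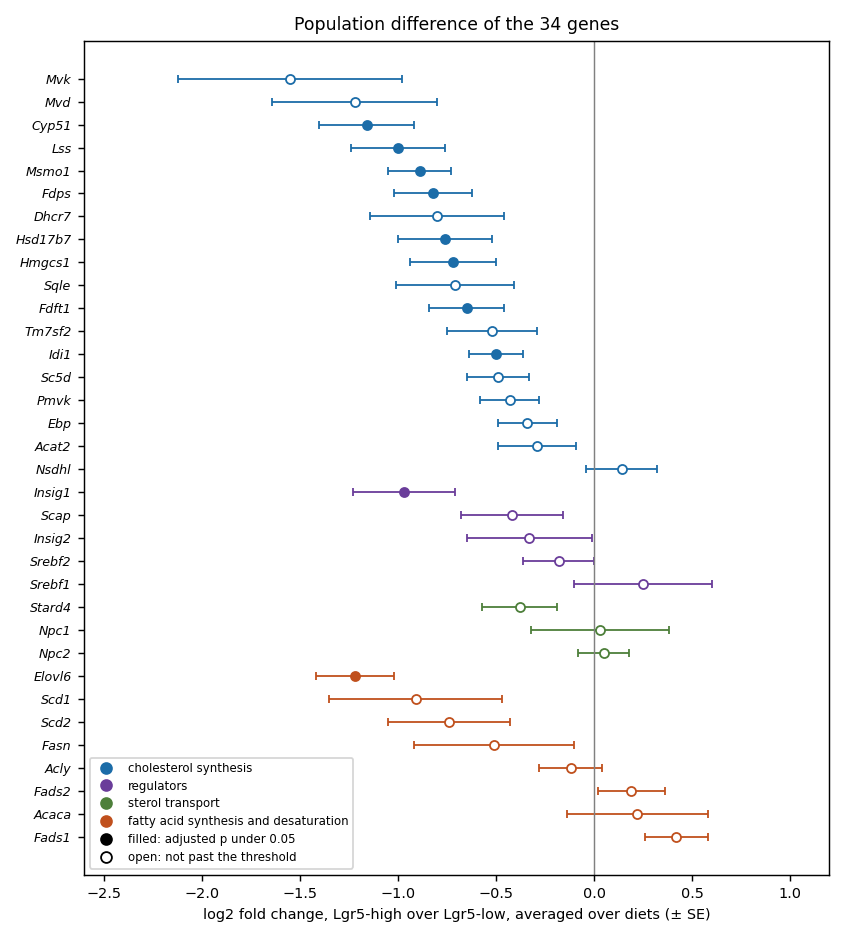
Log2 fold change of Lgr5-high over Lgr5-low cells averaged over diets, with SE, for all 34 genes ordered within each role. Filled points passed the adjusted threshold of 0.05 and all 10 of them are negative, while Nsdhl, Srebf1, Npc1, Npc2, Acaca, Fads1 and Fads2 have open points above 0.

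Within the SREBP control system Insig1 was lower in Lgr5-high cells, and the genes of the transcription factors and their escort did not pass. Insig1, the retention protein whose own gene is a known SREBP target, measured 3.84, 5.90 and 16.4 CPM in Lgr5-high cystine, 5.26, 9.44 and 15.7 in Lgr5-high control, 10.7, 18.8 and 30.3 in Lgr5-low cystine and 4.24, 17.7 and 36.4 in Lgr5-low control libraries. All 14 Lgr5-high libraries lay below the Lgr5-low median, 1 of them below every Lgr5-low library, and the log2 fold change was -0.97 ± 0.26 (adjusted p = 0.0142). Leaving out the 7 libraries under 5 M counts ended this call (-0.78, adjusted p = 0.0944).

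Srebf2 measured 10.2, 14.7 and 17.5 CPM in Lgr5-high cystine, 10.2, 15.2 and 16.6 in Lgr5-high control, 10.6, 16.8 and 21 in Lgr5-low cystine and 9.54, 17.7 and 25.9 in Lgr5-low control libraries. Its log2 fold change was -0.18 with a 95% interval of -0.53 to 0.17 (adjusted p = 0.619). Srebf1 measured 2.76, 7.04 and 10.7 CPM in Lgr5-high cystine, 1.73, 6.40 and 11.9 in Lgr5-high control, 0.293, 5.75 and 8.06 in Lgr5-low cystine and 0.858, 5.72 and 9.99 in Lgr5-low control libraries, at 0.25 (-0.44 to 0.94, adjusted p = 0.750). The intervals of both factor genes hold 0, so a modest difference in either direction was not detectable with this spread.

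Scap, the escort, measured 4.79, 14.8 and 23.0 CPM in Lgr5-high cystine, 7.85, 13.1 and 20 in Lgr5-high control, 6.61, 17.5 and 29.5 in Lgr5-low cystine and 7.25, 13.5 and 38.3 in Lgr5-low control libraries (-0.42, -0.92 to 0.09, adjusted p = 0.361). Insig2, the retention protein less dependent on SREBP, measured 4.18, 4.88 and 8.73 CPM in Lgr5-high cystine, 1.77, 8.71 and 15.4 in Lgr5-high control, 5.02, 7 and 20.4 in Lgr5-low cystine and 1.93, 9.42 and 21 in Lgr5-low control libraries (-0.33, -0.96 to 0.29, adjusted p = 0.607). The populations overlapped in both genes. The difference between the response of Insig1 and that of Insig2 was not tested.

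The 3 transport genes did not pass in any of the 7 contrasts. Stard4, a cytosolic carrier of sterols, had a log2 fold change of -0.38 ± 0.19 (adjusted p = 0.222) over both diets. All 14 Lgr5-high libraries lay below its Lgr5-low median, between 15.4 and 32.8 CPM, against 9.77 to 62.3 CPM in Lgr5-low libraries. Npc1 and Npc2, which pass cholesterol out of lysosomes, stood at 0.03 ± 0.35 and 0.05 ± 0.13.

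Among the fatty acid genes Elovl6 was lower in Lgr5-high cells and the other 7 did not pass. Elovl6, which lengthens palmitate to stearate, measured 5.59, 18.9 and 30.9 CPM in Lgr5-high cystine, 14.6, 25.7 and 40.0 in Lgr5-high control, 36.5, 51.3 and 65.7 in Lgr5-low cystine and 23.6, 48.2 and 88.9 in Lgr5-low control libraries. All 14 Lgr5-high libraries lay below the Lgr5-low median. Its log2 fold change of -1.22 ± 0.20 had the lowest adjusted p of the 34 genes, 6.93e-05, and stayed past the threshold without each of the 28 libraries in turn and in each of the 11 other settings that applied.

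Fads1, a desaturase of long polyunsaturated fatty acids, had a positive value that did not pass. It measured 24.4, 35.6 and 47.8 CPM in Lgr5-high cystine, 34, 46.7 and 57.0 in Lgr5-high control, 12.7, 32.2 and 49.8 in Lgr5-low cystine and 20.7, 29.4 and 43.5 in Lgr5-low control libraries (0.42 ± 0.16, adjusted p = 0.0937). In 13 of 14 Lgr5-high libraries it lay above the Lgr5-low median, and it passed without Lgr5-low cystine replicate 2 (0.51), with limma-voom and the random replicate block (0.53 in both) and in the female class (0.65), whereas the male class gave -0.05. Scd2, a desaturase that puts a double bond into saturated fatty acids, measured 4.44, 6.65 and 27.7 CPM in Lgr5-high cystine, 3.68, 14.2 and 27.6 in Lgr5-high control, 6.66, 14.4 and 23.8 in Lgr5-low cystine and 7.88, 21.6 and 43.3 in Lgr5-low control libraries (-0.74 ± 0.31, adjusted p = 0.129). It passed without Lgr5-high cystine replicate 4 (-1.01), with limma-voom (-0.99, adjusted p = 0.0218), with the replicate block (-0.92, adjusted p = 0.00916) and with the random block (-0.98, adjusted p = 0.0251). Fasn, Acaca, Acly and Fads2 had log2 fold changes between -0.51 and 0.22. These are the synthase, the carboxylase that supplies malonyl units, the lyase that supplies acetyl units and a further desaturase. The 8 fatty acid genes together had 5 negative values and a median of -0.31.

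**Figure D4:**
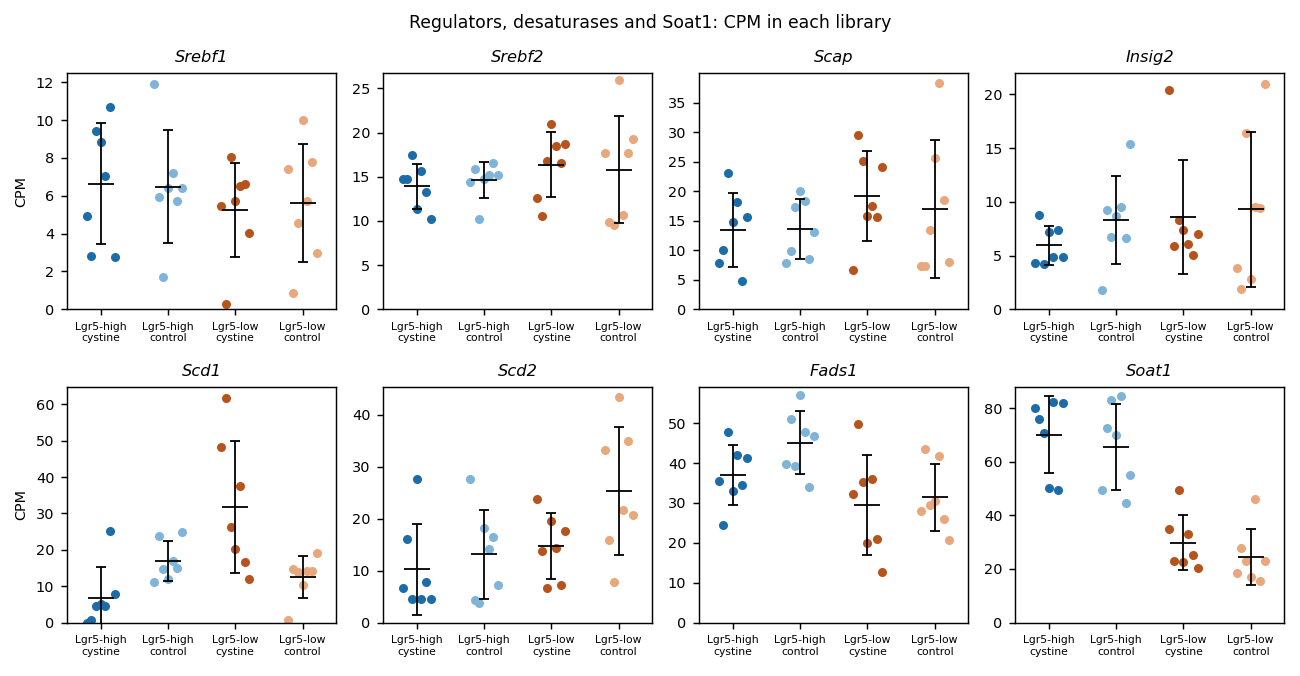
CPM of the 4 other regulators, of Scd1, Scd2 and Fads1, and of Soat1, which is no member, in each library, on linear axes from 0 with group mean and SD (bars are drawn down to 0 at most). Regulators and Scd2 overlap between populations, Scd1 has its highest points among Lgr5-low cystine libraries, and Soat1 has all 14 Lgr5-high points above the Lgr5-low median.

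Other genes of lipid synthesis and sterol handling were counted from a pair of lists. Of 21 tested genes of SREBP-linked lipid and isoprenoid synthesis, Pcyt2 was lower in Lgr5-high cells over both diets (-0.69 ± 0.17, adjusted p = 0.00786) and the other 20 did not pass, a share near the 5.05% of all genes tested that were lower. Pcyt2, which makes the activated ethanolamine of phosphatidylethanolamine synthesis, measured 5.94 to 28 CPM in Lgr5-high cystine, 16.5 to 26.0 in Lgr5-high control, 24.1 to 42.8 in Lgr5-low cystine and 13.5 to 39.6 in Lgr5-low control libraries. The call was lost in the male class alone (-0.72, adjusted p = 0.367). The median log2 fold change of that list was -0.11.

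Of 17 tested genes of the liver X receptor response, sterol efflux, esterification and uptake, Soat1 was higher and Abcg8 and Npc1l1 were lower in Lgr5-high cells, against 3.75% of all genes tested that were higher and 5.05% that were lower. Soat1 esterifies cholesterol for storage. It measured 49.4, 75.8 and 82.3 CPM in Lgr5-high cystine, 44.7, 70.1 and 84.5 in Lgr5-high control, 20.4, 25.2 and 49.6 in Lgr5-low cystine and 15.5, 22.8 and 45.9 in Lgr5-low control libraries (1.33 ± 0.16, adjusted p = 8.19e-07). All 14 Lgr5-high libraries lay above the Lgr5-low median and 11 above every Lgr5-low library. Abcg8, which with Abcg5 exports sterol to the gut lumen, had a log2 fold change of -0.97 ± 0.24 (adjusted p = 0.0072), and this call was lost in the female class (-0.81, adjusted p = 0.0698) and the male class (-1.20, adjusted p = 0.233). Npc1l1, the uptake channel for dietary sterol on enterocytes, stood at -1.10 ± 0.28 (adjusted p = 0.0102), with the call lost in the female class (-1.19, adjusted p = 0.0824). Summed enterocyte markers ran from 1430 to 13856 CPM in Lgr5-high libraries and from 4448 to 32510 CPM in Lgr5-low libraries, and their part in these values was not tested.

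On each diet alone fewer members passed, and all that did were lower in Lgr5-high cells. On cystine diet 3 of 34 passed, against 1.54% of all genes tested that were lower and 1.1% that were higher. Elovl6 stood at -1.47 ± 0.29 (adjusted p = 0.0028), Msmo1 at -0.89 ± 0.22 (adjusted p = 0.0224) and Cyp51 at -1.19 ± 0.34 (adjusted p = 0.0476). In these 3 genes every Lgr5-high cystine library lay below every Lgr5-low cystine library, an arrangement that 0.736% of all genes tested showed. Msmo1 did not pass without Lgr5-high cystine replicate 2 (-0.83) or Lgr5-low cystine replicate 7 (-0.84), with adjusted p-values of at most 0.0654. Its call was also lost in 2 of the 12 other settings, with adjusted p-values of at most 0.168. These included the fit without the libraries under 5 M counts (-0.66, adjusted p = 0.135). Cyp51 was lost when any 1 of 17 libraries was left out, namely Lgr5-high cystine replicates 1, 2, 3, 6 or 7, Lgr5-high control replicates 3, 6 or 7, Lgr5-low cystine replicates 2 to 7 and Lgr5-low control replicates 2, 4 or 5, with log2 fold changes of -1.21 to -1.08 and adjusted p-values of at most 0.107. It was also lost with RLE size factors (-1.16), with no filter (-1.21), in the female class (-0.93) and the male class (-2.28) and without libraries under 5 M counts (-0.92), with adjusted p-values of at most 0.149. On this diet 8 of 10 macrophage markers were higher in Lgr5-high libraries, and their part in the member values was not tested.

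On control diet 2 of 34 passed, against 1.02% of all genes tested that were lower and 0.784% that were higher. These were Lss at -1.37 ± 0.35 (adjusted p = 0.0274) and Msmo1 at -0.90 ± 0.22 (adjusted p = 0.0252). Neither passed with the 14 compared libraries alone in the fit (adjusted p = 0.0583 for Lss and 0.0861 for Msmo1) or in the male class (0.557 for Lss and 0.356 for Msmo1), and Lss also not with no filter (0.0649) or in the female class (0.0569). Lss was also lost without Lgr5-high control replicates 3, 5 or 6 or Lgr5-low control replicates 1, 4 or 6 (-1.35 to -1.30, adjusted p at most 0.0596). Msmo1 was lost without Lgr5-high control replicates 3, 5, 6 or 7 or Lgr5-low control replicate 1 (-0.88 to -0.71, adjusted p at most 0.108). Without Lgr5-high control replicate 1, in contrast, 5 members passed on this diet, Lss and Msmo1 with Cyp51, Elovl6 and Fdps, and without Lgr5-low control replicate 3 it was 4. Lss and Dhcr7 had non-overlapping libraries on control diet, an arrangement that 0.488% of all genes tested showed. Dhcr7, the reductase of the last step to cholesterol, measured 0.792 to 5.81 CPM in Lgr5-high control and 6.65 to 16.3 CPM in Lgr5-low control libraries (-1.58 ± 0.49, adjusted p = 0.0911). It passed with DESeq2 (-1.59, adjusted p = 0.0226), limma-voom (-1.63, adjusted p = 0.0364) and the random replicate block (-1.66, adjusted p = 0.0183), and without Lgr5-high cystine replicate 7 (-1.58).

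The libraries fall into a female and a male class by Xist and Y-linked counts, with control replicates 1 to 3 and cystine replicates 1 and 2 in the male class in both populations. Within the 18 female-class libraries 11 members were lower over both diets and 2 higher, against 5.44% of all genes lower and 6.31% higher, and 8 of them were among the 10. Within the 10 male-class libraries 5 members passed, all lower, against 1.67% of all genes lower and 0.752% higher, and 4 of them were among the 10. The log2 fold changes of the 10 were negative in both classes. They were -0.81 and -1.11 for Msmo1, -1.30 and -1.41 for Elovl6, -0.43 and -1.36 for Fdps and -0.35 and -1.08 for Fdft1 (female class, then male class). For Cyp51 they were -1.31 and -1.43, for Lss -0.95 and -1.14, for Insig1 -0.93 and -1.31, for Hmgcs1 -0.89 and -0.71, for Idi1 -0.64 and -0.22, and for Hsd17b7 -0.60 and -1.10. Fdft1 did not pass in the female class, Hsd17b7 in neither, and Hmgcs1, Idi1, Lss, Cyp51 and Insig1 not in the male class, which has 2 or 3 libraries per group.

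The diet comparisons asked whether added cystine changed these genes within a population, and no member passed. In Lgr5-high cells 0 of 34 passed (2 had an unadjusted p under 0.05, and DESeq2 and limma-voom also called 0), against 0% of all genes tested that were lower and 0.168% that were higher. In Lgr5-low cells 0 of 34 passed (2 under an unadjusted 0.05, 0 by DESeq2 and 0 by limma-voom), against 0% in either direction. Averaged over populations, edgeR called 0 of 34 with 1 under an unadjusted 0.05, against 0.016% lower and 0.144% higher among all genes, and DESeq2 and limma-voom called 1 each, lower, against 0.056% of all genes lower by either tool and 0.608% (DESeq2) and 0.12% (limma-voom) higher. The cholesterol enzymes had 14 of 18 negative values in Lgr5-high cells (median -0.22) and 16 of 18 in Lgr5-low cells (median -0.28). In all genes 52.7% and 50.4% were negative, in the same order of populations. The per-library mean of the 18 enzymes differed by -0.19 in Lgr5-high cells, where 3 of 7 cystine libraries lay below every control library, and by -0.25 in Lgr5-low cells, where 4 of 7 did. The fatty acid genes had 7 of 8 negative values in Lgr5-high cells (median -0.31) and 4 of 8 in Lgr5-low cells (median -0.02). Their per-library mean differed by -0.47 in Lgr5-high cells, with 4 of 7 cystine libraries below every control library, and by 0.06 in Lgr5-low cells, with 1 of 7 below. These means were not tested. No member had every cystine library below every control library in Lgr5-high cells, as 0.064% of all genes tested did, or in Lgr5-low cells, as 0.024% did.

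Pmvk, phosphomevalonate kinase, was the gene called by those tools. It measured 20.1, 31.8 and 58.1 CPM in Lgr5-high cystine against 47.0, 54.4 and 65.8 in Lgr5-high control libraries, and 34.9, 47.5 and 69.5 in Lgr5-low cystine against 40.3, 67.0 and 110 in Lgr5-low control libraries. In Lgr5-high cells 6 of 7 cystine libraries lay below every control library, and replicate 1 lay among them. The log2 fold change of cystine over control was -0.59 ± 0.15 averaged over populations (adjusted p = 0.0927), -0.68 ± 0.21 in Lgr5-high cells (adjusted p = 0.352) and -0.50 ± 0.21 in Lgr5-low cells (adjusted p = 1). The averaged value passed without Lgr5-high cystine replicate 1 (-0.69) or without Lgr5-low control replicate 7 (-0.64), with DESeq2 (-0.58, adjusted p = 0.0453), with limma-voom (-0.61, adjusted p = 0.0333), with the replicate block (-0.62), with the sex term (-0.55) and in the female class (-0.66). In the female class the value in Lgr5-high cells passed too (-0.91, adjusted p = 0.0439). The replicate block here was the bare number, which the labels do not tie to animals across diets. For the 10 genes that were lower in Lgr5-high cells, the diet differences lay between -0.50 (Fdft1) and 0.56 (Lss) in Lgr5-high cells and between -0.49 (Fdps) and 0.06 (Hmgcs1, Insig1 and Elovl6) in Lgr5-low cells. Standard errors of single genes had a median of 0.32 in both populations, so modest diet differences of single genes were not detectable at this spread.

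**Figure D5:**
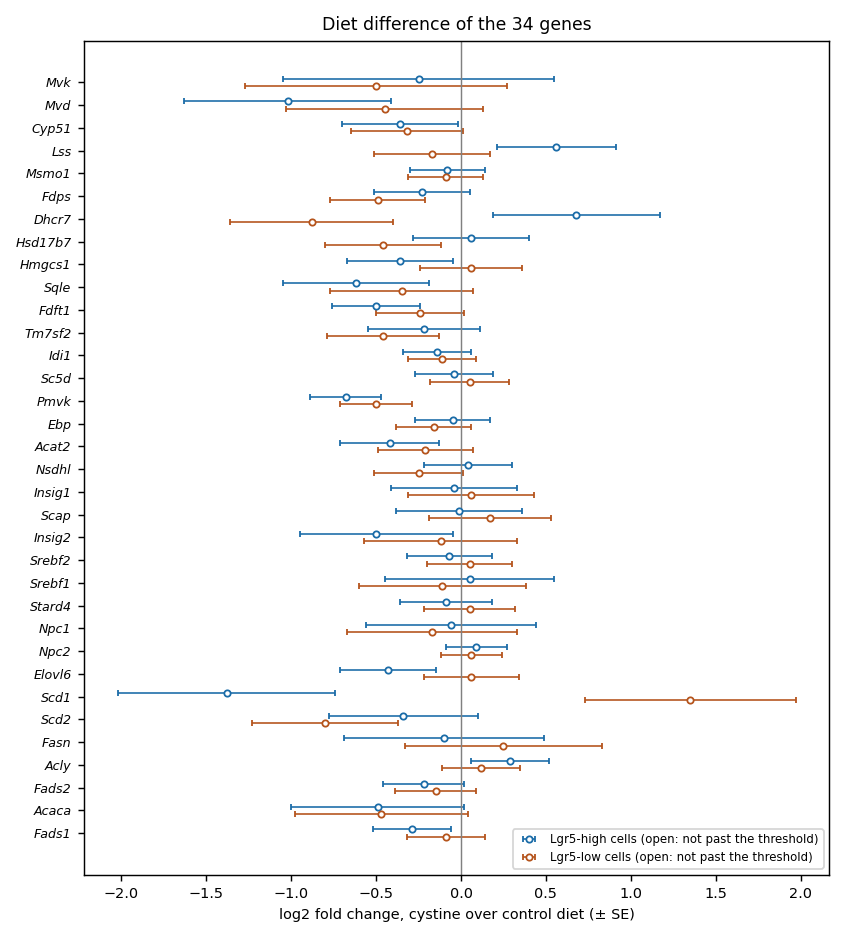
Log2 fold change of cystine over control diet with SE for all 34 genes, Lgr5-high cells above Lgr5-low cells in each row. All points are open because no gene passed the adjusted threshold, and Scd1 is the gene whose values lie farthest apart, at -1.38 in Lgr5-high and 1.35 in Lgr5-low cells.

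No member passed the test of a difference in diet effect between the populations (0 of 34, with 2 under an unadjusted 0.05, and 0 by DESeq2 and by limma-voom), against 0% of all genes tested in either direction. Those 2 were Scd1 and Dhcr7, which are named here after their values were seen. Scd1, a desaturase that makes oleate and palmitoleate, measured 0, 4.49 and 25.1 CPM in Lgr5-high cystine, 11.1, 15.1 and 25.0 in Lgr5-high control, 11.9, 26.2 and 61.7 in Lgr5-low cystine and 0.675, 14.3 and 19.0 in Lgr5-low control libraries. In Lgr5-high cells 6 of 7 cystine libraries lay below every control library, and in Lgr5-low cells 5 of 7 cystine libraries lay above every control library. The difference of diet effects was -2.73 ± 0.89 (unadjusted p = 0.00495, adjusted p = 1). On cystine diet the population difference of Scd1 was -2.28 ± 0.66 (adjusted p = 0.0585) and on control diet 0.46 ± 0.61 (adjusted p = 0.834), comparisons that share their libraries with the diet comparisons. Without Lgr5-high cystine replicate 6, the library at 25.1 CPM, the cystine diet value was -3.08 and passed, as it did without Lgr5-high cystine replicate 1 (-2.05) or Lgr5-low control replicate 1 (-2.31). It also passed with DESeq2 (-2.20), limma-voom (-2.93), the random replicate block (-3.85) and in the male class (-8.30), whose 2 Lgr5-high cystine libraries held 0 and 0.699 CPM, against 48.3 and 61.7 CPM in its 2 Lgr5-low cystine libraries, so that the fitted value is no measure of size. It did not pass in the female class (-1.31, adjusted p = 0.0711). The difference of diet effects ran from -9.09 in the male class to -1.57 in the female class, with adjusted p-values of at least 0.177 in each of the 11 other settings. For Dhcr7 the difference of diet effects was 1.56 ± 0.69 (unadjusted p = 0.0296, adjusted p = 1), with a population difference of -0.02 ± 0.49 on cystine diet and -1.58 ± 0.49 on control diet.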

How the data were processed

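Poly(A)-selected, strand-keeping libraries were sequenced per the labels' protocols. The deposited table holds estimated counts for each gene, given as whole numbers, which the authors made with Salmon 1.3.0 against mm10, per the submitters' processing notes; the transcript annotation and the summing to genes are not stated there. Salmon divides ambiguous reads between transcripts by a model, which affects near-identical or overlapping genes. The total per library, 2.75 to 21.5 M (mega), sets the counting error, and the common biological coefficient of variation, 0.629, describes the spread between libraries of a group.

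Counts were tested with edgeR 4.0.16 (TMM factors, filterByExpr, robust quasi-likelihood fit, R 4.3.3) as 1 fit to all 28 libraries with 4 group means. Two-sided p-values were Benjamini-Hochberg adjusted over 12495 genes, with 0.05 as the threshold. There were 7 contrasts: the population difference on each diet and averaged, the diet difference in each population and averaged, and the difference of diet effects. A gene's 95% interval is its estimate ± 1.96 SE, with the SE taken from the test statistic. It is a normal approximation and somewhat narrower than the test implies. Levels per library use log2(CPM + 1). Scripts were tested on simulated data. Alternatives were DESeq2 1.42.0, limma-voom (limma 3.58.1) with quality weights, RLE size factors, no filter, at least 1 CPM in 7 libraries, only the compared groups, 2 kinds of replicate block, a sex term, either sex class (female where Xist exceeded 50 CPM), no libraries under 5 M counts, and each library left out. The fixed replicate block used diet and number together, except for the diet differences, where it used the number alone. The random block used diet and number together. Replicate 3 is in the male class on control diet and in the female class on cystine diet. Coordinates and exon lengths are GENCODE M21 (GRCm38), which matched 51485 of 54354 identifiers (94.7%). Genes without a symbol numbered 1243 and stayed in the tests.

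The members, the marker and companion lists and the sex classes were chosen with earlier results of these data known. Values are given in full for members past the threshold in any contrast, the 5 regulators, and the fatty acid genes of lowest p until 3 were reached; Scd1, Dhcr7 and Pmvk were added after their values were seen.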

Additional observations from a re-analysis of the deposited data

Results flagged for a closer look

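In 80 sets of 7 libraries (16 genes given in full and the 4 role means, in 4 groups each), 11 had a highest or lowest library whose gap to its neighbour was a large share of the range. The rule flags about 1 in 20 sets when values are normally spread and the sets independent. The genes' CPM was not on a log scale and several flags came from 1 library, so the 11 cannot be read against that rate. Lgr5-high control replicate 1 stood apart in 5 cholesterol synthesis genes. It held 80.2 CPM of Hmgcs1 with the next library at 44, 226 CPM of Fdps with the next at 130, and 89.4 CPM of Fdft1 with the next at 57.1. It also held 34.9 CPM of Cyp51 with the next at 13.4, and 96.7 CPM of Msmo1 with the next at 54.6. This library had 4.05 M counts and the highest value of its group in 11 of the 18 cholesterol synthesis genes.

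Lgr5-low cystine replicate 4 stood above its group in Hmgcs1 (69.4 CPM, next 50.8), Idi1 (111 CPM, next 74.1) and Cyp51 (28.9 CPM, next 24). Lgr5-low control replicate 1 held 485 CPM of Fdps with the next library at 247. Lgr5-low cystine replicate 1 held 20.4 CPM of Insig2 with the next at 8.34. Lgr5-high control replicate 3 was the low library for Srebf2, at 10.2 CPM with the next at 14.4. The cause was not tested in any of these.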

How the results depend on the processing

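The 10 genes lower in Lgr5-high cells over both diets kept a negative sign in each of the 28 fits without 1 library and in the 11 other settings, and the calls of Fdps, Msmo1 and Elovl6 held throughout. Shares in parentheses are of all genes called lower in the same fit. Of 34 members, limma-voom called 16 in that comparison (9.5%), 15 of them lower, and the random replicate block 17 (8.37%), 16 of them lower. The male class alone gave 5 (1.67%), against 10 (5.05%) in the main fit. Without 1 library it was 7 to 12 (4.29% to 6.33%). On control diet, against 2 called (1.02%), there were 6 with DESeq2 (1.86%), 9 with limma-voom (3.03%), 1 with no filter (0.365%), 0 with only the compared groups (0.676%), 5 with a sex term (1.9%), 0 in the male class (0.217%) and 5 without libraries under 5 M counts (0.657%); without 1 library it was 0 to 5 (0.528% to 1.66%). On cystine diet, against 3 (1.54%), limma-voom called 6 (3.65%), and without 1 library it was 1 to 4 (0.72% to 1.94%). In Lgr5-high cells the diet comparison gave 1 in the female class and 0 whichever library was left out. Averaged over populations it gave 1 (Pmvk) with DESeq2, limma-voom, the replicate block, the sex term and the female class, and 0 to 1 without 1 library. The diet comparison in Lgr5-low cells and the difference of diet effects gave 0 throughout.

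Values that changed sign never passed the test. Srebf1 over both diets went to -0.03 with limma-voom and -0.09 without libraries under 5 M counts, Srebf2 to 0.22 in the male class, Insig2 to 0.19 with limma-voom and 0.08 with the random block, and Fads1 to -0.05 in the male class, where the female class gave 0.65 (adjusted p = 0.0169). Over all genes on cystine diet, DESeq2 called 301 higher and 274 lower against 138 and 192 with edgeR. The cause was not tested.

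Replicate numbers are shared between groups. Same-numbered Lgr5-high and Lgr5-low libraries deviated together only weakly (r from 0.0945 to 0.267 on control diet and from -0.105 to 0.204 on cystine diet). The r was over 0.1 for 6 of 7 numbers on control and 2 of 7 on cystine diet. Among the 7 Lgr5-low libraries of the same diet, the same-numbered library had the highest r for control numbers 1, 3, 4 and 6. On cystine diet this held for numbers 1, 3 and 5. The sex classes also match by number within each diet. The labels do not tie numbers to animals, so the main fit did not treat these libraries as paired. Whether they are pairs was not settled. The mean of the cholesterol enzymes was lower in the Lgr5-high library for 14 of 14 same-numbered pairs. That count cannot bear on pairing, because Lgr5-high and Lgr5-low libraries of the same diet hardly overlapped in this mean. A replicate block gave 4 calls on control (1.59%) and 5 on cystine diet (2%), and a random block (correlation 0.129) gave 10 (2.82%) and 6 (2.3%).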
